A study of Mus musculus with 8 samples.

Results

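Fibroblast growth factors (FGFs) and their receptors were followed across RNA-seq libraries of cells sorted from the second heart field (SHF) of the mouse embryo. The members were 10 genes listed by name, the ligands Fgf3, Fgf8, Fgf9, Fgf10 and Fgf15, the receptors Fgfr1, Fgfr2, Fgfr3 and Fgfr4, and the receptor-like gene Fgfrl1. Of these, 7 were among the 16302 genes of the deposited table and were read in all 8 libraries. Fgf3, Fgf8 and Fgfr4 were not analysed here.

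The SHF is a pool of cardiac progenitor cells in the pharyngeal mesoderm from which the heart tube grows at both of its poles. SHF regions were dissected from embryos at embryonic day 9.5, and fluorescent cells were collected by flow cytometry. GFP-positive (GFP+) cells came from the Hoxb1-GFP line and gave 3 libraries. In this line GFP is made where the Hoxb1 gene is active, which within the SHF is its posterior part (pSHF). Tomato-positive (Tomato+) cells came from embryos carrying Mef2c-AHF-Cre and the Rosa-tdTomato reporter (Mef2c-Cre;Rosa-tdT) and gave 3 libraries. In this line an enhancer of Mef2c that works in the anterior heart field drives Cre, and the cells and their descendants keep the red label. Cells without label gave 1 library per line (GFP- and Tomato-). Embryos were pooled before sorting. The label reports present or recent activity in the GFP line, and present or past activity in the Tomato line. The populations come from different alleles, so line and population cannot be told apart. The study's methods use the symbol Hoxb1- for alleles that include the GFP reporter, and an effect of this allele on the FGF genes was not tested.

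FGFs are secreted proteins that bind receptor tyrosine kinases together with heparan sulphate chains on the cell surface. The activated receptor signals through the adaptor Frs2 to the RAS-MAPK cascade, and cells answer by transcribing ETS factors of the Etv4 and Etv5 kind and inhibitors of the Sprouty family, which damp the signal. In the mouse SHF this pathway is known for its part in progenitor proliferation and in the growth of the outflow tract. Each receptor gene among Fgfr1, Fgfr2 and Fgfr3 is spliced into forms with different ligand preference, and reads summed per gene do not separate these forms.

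The libraries held 22668185 to 41597870 reads, and levels are given as normalized reads, for which each library's reads were divided by its own size factor. Mitochondrial ribosomal RNA took 30.6% to 49.3% of the reads, with replicate 2 above replicates 1 and 3 in both positive groups and the highest share in Tomato-. Within each positive group, replicates 1 and 3 were close to copies of each other. Their chi-square per degree of freedom was 2.35 in GFP+ and 2.38 in Tomato+, against 72.4 to 93.0 for pairs with replicate 2. The limit set for counting a pair as 1 library was a value under 1.2, which neither pair met. The study calls its replicates biological, but no label says that the 3 libraries of a group came from separate sorts. The p-values rest on how far the libraries of a group vary, and this variation may be technical. Each test of a member or named pathway gene is therefore also given with replicates 1 and 3 averaged (the averaged test). Hoxb1, the gene behind the GFP reporter, had 843, 720 and 986 normalized reads in GFP+ and 60.8 in GFP-. It had 301, 415 and 292 in Tomato+ and 199 in Tomato-. Mef2c, whose enhancer drives the Cre, had 1451, 1469 and 1412 normalized reads in Tomato+ and 2117 in Tomato-. In GFP+ it had 1951, 2129 and 1892, above every Tomato+ library, and in GFP- it had 1334.

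Of the 7 members, 4 were higher and 1 was lower in GFP+ than in Tomato+, and 2 did not pass the test. Fgf9, Fgf10, Fgfr2 and Fgfrl1 rose, Fgfr3 fell, and Fgf15 and Fgfr1 had adjusted p-values of 0.999 and 0.779. The test was limma on log2(normalized reads + 1), two-sided, over 16153 genes, and a gene was called at an adjusted p under 0.05. Across all genes 39.7% were called, 19.7% as higher and 20% as lower. All 7 members passed the filter of a mean of 10 normalized reads. The median log2 fold change was 0.88 over the members and -0.01 over all genes. In the averaged test 2 members were higher (Fgf10 and Fgfr2) and 1 was lower (Fgfr3), beside 18.1% of all genes called, 8.9% as higher and 9.24% as lower. Scaling to the reads outside mitochondrial genes shifted the median of all genes to -0.14 and their calls to 2378 higher and 4002 lower, against 3186 and 3224 with the deposited size factors. The 5 members called kept their direction and their call under that scaling, in which Fgf15 and Fgfr1 had log2 fold changes of -0.13 and -0.09. In these pools of cells, a lower level of a transcript can mean fewer cells of a type or less RNA per cell, which cannot be told apart.

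**Figure D1:**
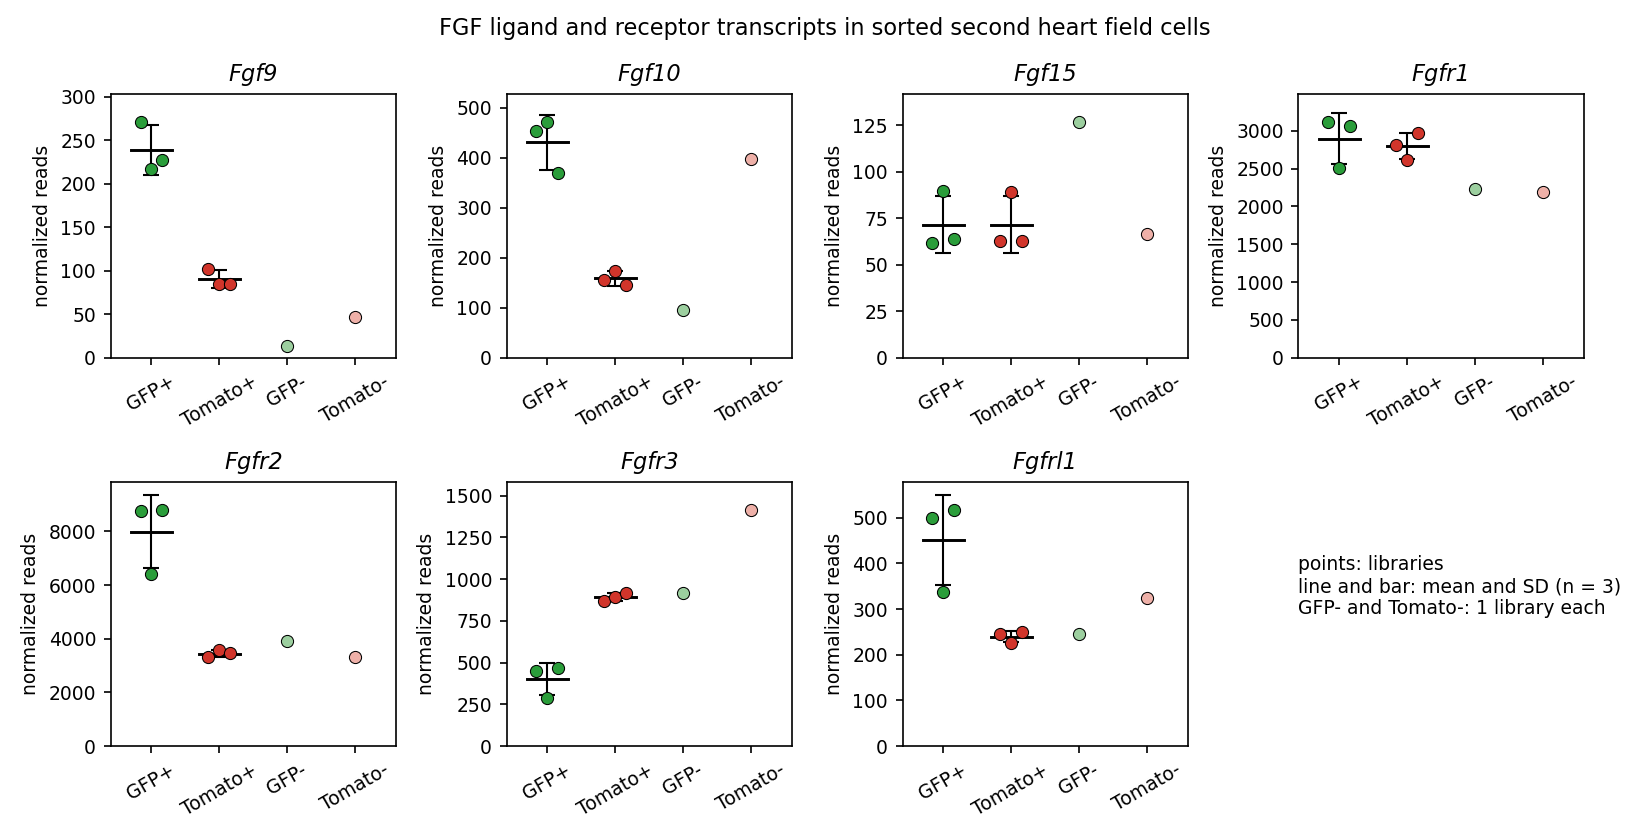
Normalized reads (y axis) of the 7 members in GFP+, Tomato+, GFP- and Tomato- libraries (x axis), with a point per library and the mean and SD of the 3 positive libraries. For Fgf9, Fgf10, Fgfr2 and Fgfrl1 every GFP+ point lies above every Tomato+ point, for Fgfr3 every GFP+ point lies below, and for Fgf15 and Fgfr1 the groups overlap.

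**Figure D2:**
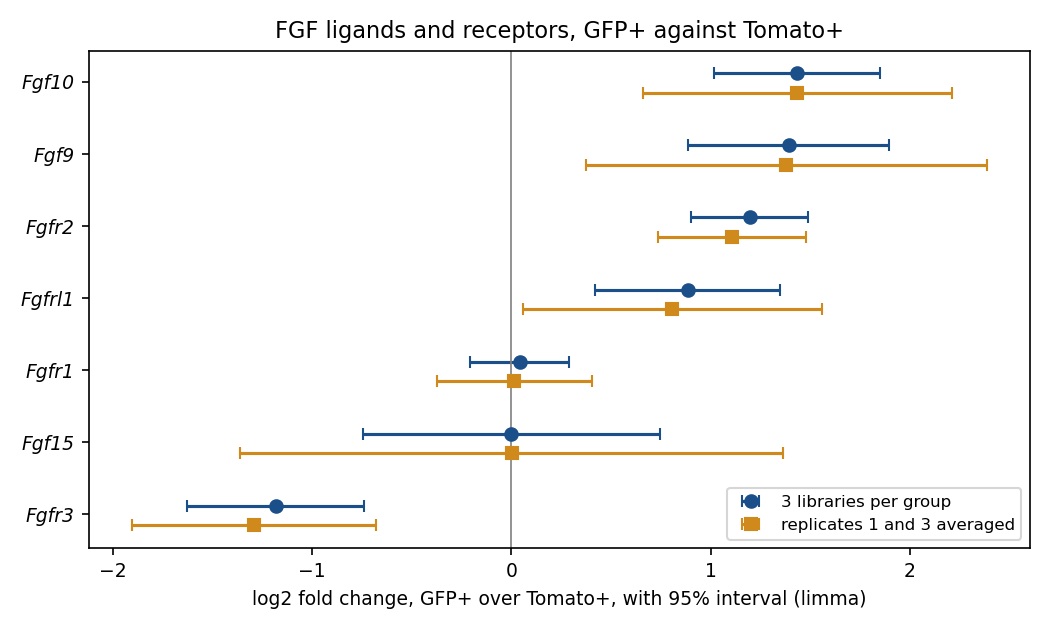
Log2 fold change of GFP+ over Tomato+ (x axis) for the 7 members, with 95% intervals from limma, for 3 libraries per group (circles) and with replicates 1 and 3 averaged (squares). The estimates run from -1.18 for Fgfr3 to 1.43 for Fgf10, and averaging widened every interval.

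The promoters of the members that differed are shown here, since 4 of these genes were higher and 1 was lower in the same cells. The RefSeq promoters used here (GRCm38.p6) could be matched to 5 of the 7 members, Fgf9, Fgf10, Fgfr2, Fgfr3 and Fgfrl1. Each stretch runs from 250 bases before to 50 bases after the start of the gene, 5′ to 3′ on the strand of the gene. Capitals mark matches, on either strand, to letters bound by factors of the SHF or by ETS factors. These letters were TGATNNAT for HOX with PBX, TGACAG for MEIS, AGATAA for GATA factors, AGGTGTGA for T-box factors and CCGGAAG for ETS factors. The TATA box (TATAAA) and the GC box (GGGCGG) were searched too and are not capitalised. The positions are chr14:58072436-58072735 (plus strand) for Fgf9, chr13:118714449-118714748 (plus) for Fgf10, chr7:130266759-130267058 (minus) for Fgfr2, chr5:108693979-108694278 (plus) for Fgfrl1 and chr5:33721474-33721773 (plus) for the upstream of the starts listed for Fgfr3. The gene spans given with the results cover every transcript of GENCODE, so these RefSeq starts lie inside them, for Fgf10 and Fgfr2 far from the outer end.
Fgf9: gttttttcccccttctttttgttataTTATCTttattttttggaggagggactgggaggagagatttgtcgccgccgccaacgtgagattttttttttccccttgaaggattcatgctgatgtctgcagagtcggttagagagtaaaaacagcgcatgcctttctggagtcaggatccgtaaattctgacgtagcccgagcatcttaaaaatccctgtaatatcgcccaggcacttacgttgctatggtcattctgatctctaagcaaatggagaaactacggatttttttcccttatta
Fgf10: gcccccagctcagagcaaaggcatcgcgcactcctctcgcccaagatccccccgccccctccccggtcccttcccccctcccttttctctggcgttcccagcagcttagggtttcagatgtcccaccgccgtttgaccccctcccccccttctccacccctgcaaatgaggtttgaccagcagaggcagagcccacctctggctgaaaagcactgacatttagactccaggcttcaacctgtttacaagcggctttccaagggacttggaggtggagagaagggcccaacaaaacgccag
Fgfr2: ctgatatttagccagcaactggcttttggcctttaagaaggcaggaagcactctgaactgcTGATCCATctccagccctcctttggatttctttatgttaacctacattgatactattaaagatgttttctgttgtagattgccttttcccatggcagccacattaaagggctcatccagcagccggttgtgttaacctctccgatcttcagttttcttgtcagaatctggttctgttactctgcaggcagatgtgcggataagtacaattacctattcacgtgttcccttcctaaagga
Fgfrl1: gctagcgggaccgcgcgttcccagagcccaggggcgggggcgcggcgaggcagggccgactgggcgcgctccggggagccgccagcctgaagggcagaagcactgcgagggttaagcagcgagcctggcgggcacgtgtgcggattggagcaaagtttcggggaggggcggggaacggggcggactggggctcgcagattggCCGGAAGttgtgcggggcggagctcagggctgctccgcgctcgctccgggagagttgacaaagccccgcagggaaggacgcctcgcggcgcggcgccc
Fgfr3: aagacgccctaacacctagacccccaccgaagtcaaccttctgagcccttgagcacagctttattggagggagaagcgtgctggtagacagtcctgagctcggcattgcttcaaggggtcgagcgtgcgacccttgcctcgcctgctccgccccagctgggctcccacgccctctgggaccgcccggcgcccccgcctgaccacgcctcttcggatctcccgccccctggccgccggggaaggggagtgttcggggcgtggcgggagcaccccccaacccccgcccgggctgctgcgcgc

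Each capitalised match was found in a lone member. A HOX-PBX match stood 189 bases before the start of Fgfr2, and 8.79% of 32544 promoters of the same length held that motif. A GATA match stood 224 bases before the start of Fgf9 (11.2% of promoters), and an ETS match stood 48 bases before the start of Fgfrl1 (8.91%). Fgf10 and Fgfr3 held none of these 5 motifs, and none of the 5 promoters shown held MEIS (19.1% of promoters), T-box (1.28%) or TATA letters (13.6%). The GC box, held by 35.9% of promoters, was found in Fgf10 (1 match), Fgfrl1 (4) and Fgfr3 (4) and not in Fgf9 or Fgfr2. The G and C content was 73.7% for Fgfrl1, 69.7% for Fgfr3, 60.7% for Fgf10, 43.7% for Fgfr2 and 42.7% for Fgf9, against a median of 53.0% over all promoters. A match is a stretch of letters and not a measured binding site.

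Among the ligands, Fgf10 and Fgf9 were higher in GFP+ than in Tomato+, and the Fgf15 groups overlapped. Fgf10, which signals mainly through a splice form of Fgfr2 and is made by SHF mesoderm in the mouse, is a protein-coding gene at chr13:118669791-118792115 (GRCm38, GENCODE). The study describes Fgf10 as a marker of the anterior SHF, whereas here Fgf10 was higher in the cells with the posterior label. The study also used an Fgf10 enhancer trap transgene, seen in the anterior SHF of embryos. Levels in sorted pools do not show where in the SHF a transcript is made. Fgf10 had 453, 472 and 369 normalized reads in GFP+ and 156, 174 and 146 in Tomato+. The lowest GFP+ library stood above the highest Tomato+ library. The means were 431 ± 54.8 in GFP+ and 159 ± 14.3 in Tomato+ (SD, n = 3 each), a log2 fold change of 1.43 (SE 0.18) or 2.70-fold, with an adjusted p of 0.000728 (limma). The averaged test gave 1.44 with an adjusted p of 0.0101, and no library left out ended the call.

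Fgf9, a ligand that signals between epithelium and mesenchyme in many mouse organs, lies at chr14:58070547-58112720. It had 271, 218 and 228 normalized reads in GFP+ and 102, 84.9 and 84.1 in Tomato+, with no overlap. The means were 239 ± 28.5 in GFP+ and 90.3 ± 10.0 in Tomato+ (SD, n = 3 each). The log2 fold change was 1.39 (SE 0.22), or 2.63-fold, with an adjusted p of 0.00205 (limma). With replicates 1 and 3 averaged it was 1.38 with an adjusted p of 0.0527, so the call did not hold there.

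Fgf15, the mouse counterpart of human FGF19 and a gene with a known role in the arterial pole of the mouse heart, lies at chr7:144896531-144900953. It had 61.4, 89.4 and 63.9 normalized reads in GFP+ and 62.8, 89.2 and 62.6 in Tomato+. The groups covered the same range, and in both of them replicate 2 was the highest. The log2 fold change was 0.00 (SE 0.32), and its 95% interval of 0.596-fold to 1.68-fold leaves room for a moderate difference either way. The adjusted p was 0.999 in limma and in the averaged test. These values rest on 44 to 146 reads per library.

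Per kb of exon, a scale on which genes can be compared with each other, the order of the ligands in GFP+ was Fgf10, Fgf9 and Fgf15, at 105 ± 13.3, 53.2 ± 6.35 and 39.5 ± 8.56 normalized reads per kb (SD, n = 3). The 3 Fgf9 libraries (48.4 to 60.4 per kb) and the 3 Fgf15 libraries (33.9 to 49.4 per kb) overlapped in GFP+. With the longest coding transcript as length, an alternative chosen after seeing the data, Fgf9 (60.5 to 75.5 per kb) lay above Fgf15 in all 3 libraries with no overlap, so the order of these neighbours depends on the length used. In Tomato+ the order was Fgf15, Fgf10 and Fgf9, at 39.5 ± 8.45, 38.5 ± 3.48 and 20.1 ± 2.24 per kb. There Fgf15 and Fgf10 overlapped, and Fgf9 lay below both in every library. As a share of the 3 ligands per kb, Fgf15 made up 19.98% ± 3.32 in GFP+ and 39.99% ± 4.18 in Tomato+, and Fgf10 made up 52.9% ± 1.66 in GFP+ and 39.3% ± 0.90 in Tomato+. The ratio of Fgf10 to Fgf9 reads was 1.82 ± 0.30 in GFP+ and 1.77 ± 0.26 in Tomato+, so both genes differed between the populations by a similar factor.

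Among the receptors, Fgfr2 was higher and Fgfr3 lower in GFP+ than in Tomato+, and the Fgfr1 groups overlapped. Fgfr2, whose splice forms are used by epithelium and by mesenchyme, lies at chr7:130162451-133123350 and had the highest level per kb of exon among the members in every library. It had 8748, 6411 and 8787 normalized reads in GFP+ and 3308, 3569 and 3472 in Tomato+. Every GFP+ library exceeded every Tomato+ library, and GFP+ replicate 2 was the lowest of its group. The means were 7982 ± 1361 in GFP+ and 3450 ± 132 in Tomato+ (SD, n = 3 each), a log2 fold change of 1.196 (SE 0.13), or 2.29-fold, with an adjusted p of 0.00034 (limma). The averaged test gave 1.11 with an adjusted p of 0.000179. In the annotation an exon of Fgfr2 overlaps one of Ctbp2 on the same strand, and reads of the shared stretch cannot be assigned to either gene.

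Fgfr3, a receptor best known in the mouse for restraining bone growth, lies at chr5:33721674-33737068. It had 447, 290 and 468 normalized reads in GFP+ and 870, 893 and 918 in Tomato+. The highest GFP+ library lay well under the lowest Tomato+ library. The means were 402 ± 97.0 in GFP+ and 894 ± 24.2 in Tomato+ (SD, n = 3 each), a log2 fold change of -1.18 (SE 0.19), with an adjusted p of 0.00234 (limma). The averaged test gave -1.29 with an adjusted p of 0.00405. Fgfr3 was the member that fell in GFP+, and its call held without each library in turn.

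Fgfr1, the main receptor of many mesenchymal cells, lies at chr8:25513654-25575718. It had 3120, 2504 and 3059 normalized reads in GFP+ and 2810, 2619 and 2970 in Tomato+. The Tomato+ libraries fell within the range of the GFP+ libraries. The log2 fold change was 0.04 (SE 0.11), and the 95% interval ran from 0.867-fold to 1.22-fold, which bounds any difference between the means of these libraries more tightly than for Fgf15. The averaged test gave 0.02 with an adjusted p of 0.965.

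Fgfrl1 encodes a receptor-like membrane protein that binds FGFs but lacks the tyrosine kinase domain, and lies at chr5:108692382-108706924. It had 500.2, 337 and 516 normalized reads in GFP+ and 246, 225 and 249 in Tomato+. The groups did not overlap, and GFP+ replicate 2 stood closest to Tomato+. The means were 451 ± 99.0 in GFP+ and 239.9 ± 12.9 in Tomato+ (SD, n = 3 each), a log2 fold change of 0.88 (SE 0.20), or 1.85-fold, with an adjusted p of 0.0102 (limma). The averaged test gave 0.81 with an adjusted p of 0.127. Without GFP+ replicate 1 or GFP+ replicate 3 the adjusted p was 0.0513 and 0.0520, so this call was the weakest of the 5 members called.

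Of the 7 members, 5 had no overlap between the GFP+ and Tomato+ libraries, beside 54.6% of all genes. Replicate 2 of GFP+, the library with the larger share of mitochondrial ribosomal RNA, was the lowest of its group for all 4 receptor genes and for Fgf9. It was the highest for Fgf10 and Fgf15. The part of that share in these values was not tested. The kit keeps no strand, and exons of Fgf10, Fgf15, Fgfr1 and Fgfr3 overlap exons on the opposite strand in the annotation, so reads of these partners cannot be told apart.

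**Figure D3:**
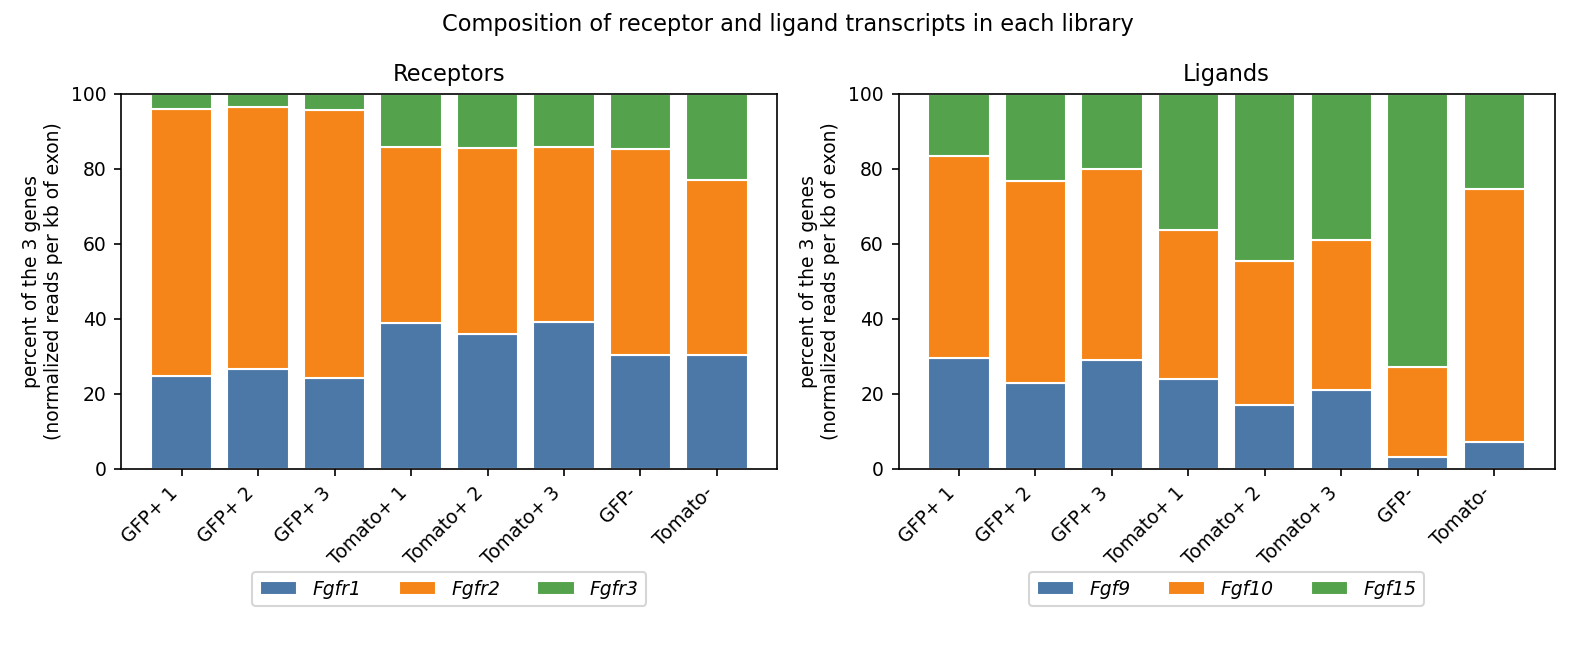
Share of each receptor (left) and each ligand (right) in the sum of its 3 genes (y axis, percent of normalized reads per kb of exon) in each of the 8 libraries (x axis). Fgfr2 takes 69.6% to 71.3% of the receptor sum in GFP+ and 46.6% to 49.7% in Tomato+, while the Fgfr3 share is smallest in GFP+.

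Because the receptors share ligands, their mix was also described within each library, where the size factor cancels. Per kb of exon, Fgfr2 was the most abundant receptor in every library, followed by Fgfr1 and then Fgfr3. Fgfr2 made up 70.6% ± 0.86 of the 3 receptors in GFP+ and 47.7% ± 1.77 in Tomato+ (SD, n = 3 each), 54.7% in GFP- and 46.7% in Tomato-. Fgfr3 made up 4.10% ± 0.39 in GFP+ and 14.4% ± 0.09 in Tomato+, with 14.8% in GFP- and 23.1% in Tomato-. The GFP+ libraries thus stood apart from the other 5 in both shares. The ratio of Fgfr2 to Fgfr3 reads was 19.6, 22.1 and 18.8 in GFP+ and 3.80, 3.995 and 3.78 in Tomato+, and it was 4.29 in GFP- and 2.35 in Tomato-. The ratio of Fgfr2 to Fgfr1 reads was 2.80, 2.56 and 2.87 in GFP+ and 1.18, 1.36 and 1.17 in Tomato+, and it was 1.76 in GFP- and 1.52 in Tomato-. In absolute terms the Fgfr2 level was 1561 ± 266 normalized reads per kb in GFP+ and 674 ± 25.7 in Tomato+, and the Fgfr1 level was 555 ± 65.0 per kb in GFP+ and 537 ± 33.7 in Tomato+. The Fgfrl1 level was 174 ± 38.2 per kb in GFP+ and 92.6 ± 4.98 in Tomato+, above the Fgfr3 level of 91.3 ± 22.1 in every GFP+ library and below the Fgfr3 level of 203 ± 5.49 in every Tomato+ library.

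Each positive population was also set beside the lone library of unlabelled cells of its line. A gene was said to stand apart when all 3 positive libraries differed from that library by 2-fold or more in the same direction, and when the larger of the levels reached 50 normalized reads. There is no replicate of the unlabelled cells, so no test was made. These comparisons share the positive libraries with the comparison above.

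In the GFP line Fgf9 and Fgf10 stood apart above the unlabelled cells, and no member stood apart below them. Across all genes compared, 4.95% stood apart above and 4.21% below. Fgf9 had 13.03 normalized reads in GFP-, which were 15 reads, so the GFP+ mean was 18.3 times that level. Fgf10 had 94.7 normalized reads in GFP- and its GFP+ mean was 4.55 times as high. Fgfr2 (3932 in GFP-), Fgfrl1 (245) and Fgfr1 (2231) had mean ratios of 2.03, 1.84 and 1.30 for GFP+ over GFP-, and every GFP+ library was above the unlabelled one. Fgfr3 had 917 normalized reads in GFP- and a ratio of 0.438, and Fgf15 had 127 and a ratio of 0.564, with every GFP+ library below the unlabelled one for both.

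In the Tomato line Fgf10 stood apart below the unlabelled cells, and no member stood apart above them, beside 7.31% and 8.76% of the 15088 genes compared. Fgf10 had 397 normalized reads in Tomato-, a level within the range of the GFP+ libraries, and the ratio of Tomato+ to Tomato- was 0.399. Fgf9 had 46.8 in Tomato- and a ratio of 1.93, in the same direction as in the GFP line. Fgfr3 was highest of all 8 libraries in Tomato-, at 1412 normalized reads, and its ratio was 0.633. Fgfrl1 had 325 in Tomato- and a ratio of 0.739. Fgfr1 (2193 in Tomato-), Fgf15 (66.5) and Fgfr2 (3322) had ratios of 1.28, 1.08 and 1.04. For Fgf10 and Fgfrl1 the positive libraries lay on opposite sides of their unlabelled library in the GFP and Tomato lines, which was the case for 24.7% of all genes, and this difference between the lines was not tested.

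**Figure D4:**
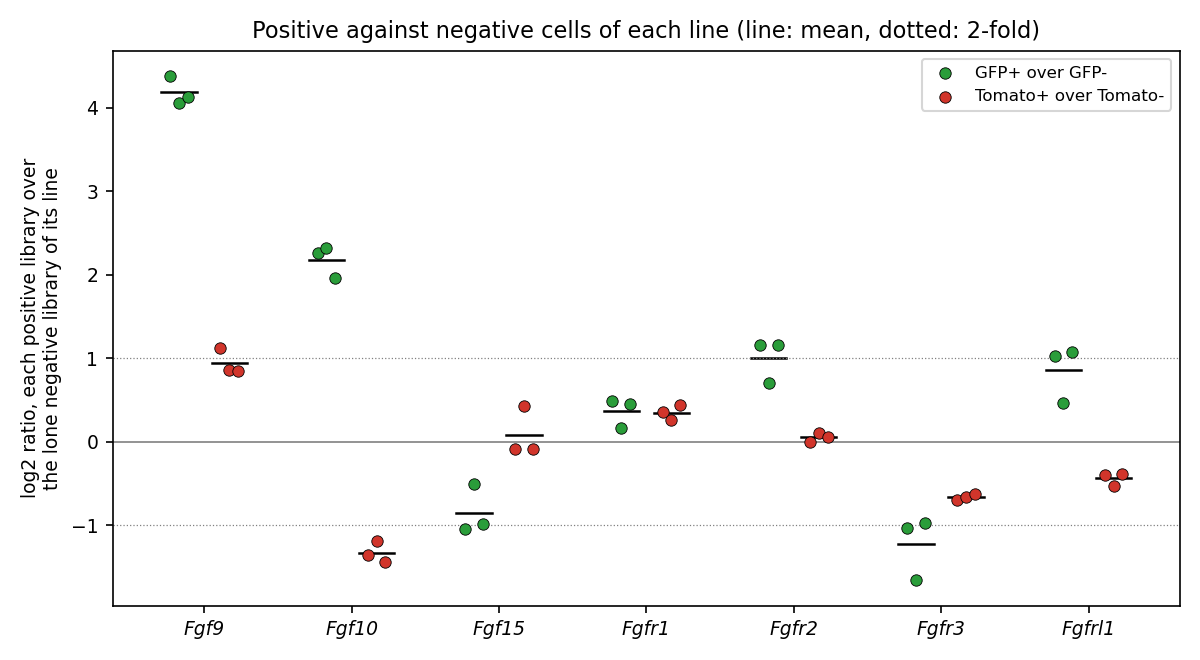
Log2 ratio of each positive library to the lone unlabelled library of its line (y axis) for the 7 members (x axis), with the mean of the log2 ratios as a line and the 2-fold limits dotted. Fgf10 lies above 0 in GFP+ over GFP- and below 0 in Tomato+ over Tomato-, and Fgfr3 lies below 0 in both lines.

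The unlabelled libraries also differed from each other. Fgf10 and Fgf9 in GFP- were at 0.238 and 0.278 times their level in Tomato-, and Fgf15 was at 1.91 times its level there. The ratio of GFP- to Tomato- was 1.02 for Fgfr1, 1.18 for Fgfr2, 0.650 for Fgfr3 and 0.754 for Fgfrl1. Fgf10 therefore ranked GFP+, Tomato-, Tomato+ and GFP- by its mean or lone value, and Fgf9 ranked GFP+, Tomato+, Tomato- and GFP-.

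Markers of cell types of the region also differed between the sorted populations. The counts below stand beside 19.7% of all genes higher in GFP+ and 20% lower. Of the SHF mesoderm markers, 7 of 7 in the table were higher in GFP+ than in Tomato+ (summed level 8213 to 9470 in GFP+ and 4992 to 5157 in Tomato+, 2252 in GFP- and 4669 in Tomato-). This list holds Hoxb1, by whose reporter GFP+ cells were sorted, and Osr1, Tbx5 and Foxf1, which the study gives as pSHF genes. The count therefore does not measure the amount of SHF mesoderm. Of 11 pharyngeal endoderm markers 10 were higher in GFP+ (5318 to 5673 in GFP+ and 980 to 1201 in Tomato+, 1243 in GFP- and 1515 in Tomato-), and Nkx2-3 was at 0 in every Tomato+ library. Of 9 cardiomyocyte markers 8 were higher (30568 to 35515 in GFP+ and 4327 to 4872 in Tomato+, 17109 in GFP- and 2865 in Tomato-). All 6 primitive erythroid markers were lower in GFP+ (897 to 1263 in GFP+ and 107132 to 130325 in Tomato+, 269791 in GFP- and 247004 in Tomato-). Of 11 neural tube markers 7 were lower and 1 was higher (3562 to 4102 in GFP+ and 7370 to 8934 in Tomato+, 9035 in GFP- and 7432 in Tomato-), and of 7 neural crest markers 2 were lower (2475 to 2528 in GFP+ and 6053 to 6456 in Tomato+, 4337 in GFP- and 7641 in Tomato-). Endothelial markers were lower for 4 of 7 (1597 to 1704 in GFP+ and 2335 to 2680 in Tomato+, 2632 in GFP- and 3487 in Tomato-), leukocyte markers for 4 of 5 (168 to 246 in GFP+ and 934 to 999 in Tomato+, 241 in GFP- and 1110.0 in Tomato-) and tail and limb bud markers for 3 of 6 (442 to 526 in GFP+ and 1120 to 1176 in Tomato+, 73.0 in GFP- and 926 in Tomato-). Surface ectoderm markers had 1 higher and 2 lower of 4 (500.2 to 563 in GFP+ and 498 to 617 in Tomato+, 65.1 in GFP- and 385 in Tomato-). In the averaged test, beside 8.9% of all genes higher and 9.24% lower, 4 SHF mesoderm, 8 pharyngeal endoderm and 9 cardiomyocyte markers were higher. Lower there were 6 primitive erythroid, 3 endothelial, 3 leukocyte, 3 tail and limb bud and 1 of the neural crest markers. The neural tube list had 1 higher and 6 lower there, and the surface ectoderm list 1 and 2. The part of these cell types in the FGF levels was not tested.

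The rest of the pathway was read from lists of its genes. Genes of the feedback and target list were mostly higher in GFP+, at 9 of 12 with none lower and a median log2 fold change of 1.11, and in the averaged test 7 were higher and none lower. Of all genes, 19.7% were higher and 20% lower, and in the averaged test 8.9% and 9.24%. Spry1, a Sprouty inhibitor of receptor signalling, had 436, 348 and 414 normalized reads in GFP+ and 86.5, 79.3 and 86.3 in Tomato+. Its log2 fold change was 2.23 (SE 0.19) with an adjusted p of 0.000136 (limma). Spry2, of the same family, had 650.2, 1268 and 658 in GFP+ and 225, 191 and 232 in Tomato+ (log2 fold change 1.92, SE 0.27, adjusted p 0.00116). Etv5, an ETS factor transcribed in answer to FGF, had 1306, 1060.0 and 1327 in GFP+ and 360.4, 610.2 and 408 in Tomato+ (log2 fold change 1.45, SE 0.21, adjusted p 0.00128). The groups did not overlap for any of these 3 genes, and the adjusted p in the averaged test was 0.00148 for Spry1, 0.000191 for Spry2 and 0.00257 for Etv5.

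**Figure D5:**
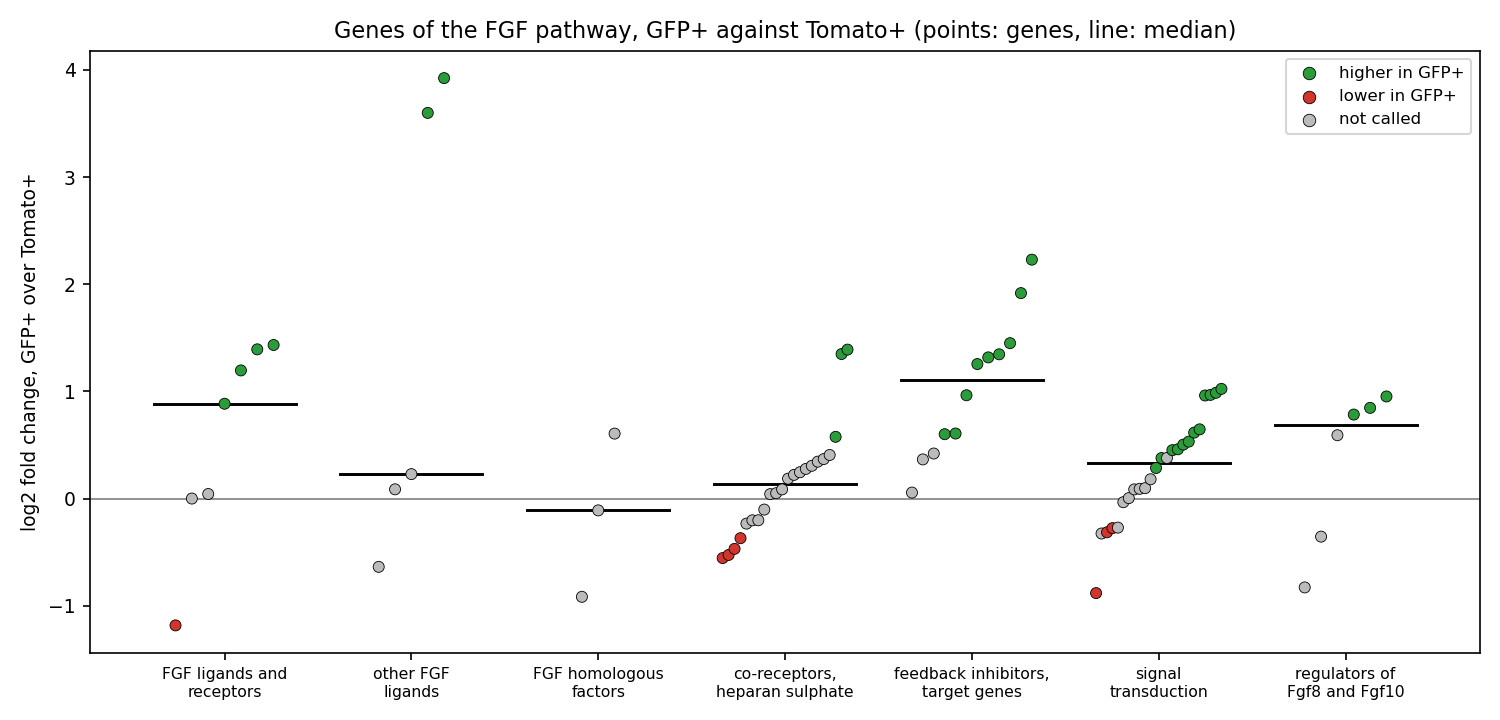
Log2 fold change of GFP+ over Tomato+ (y axis) for the members and for each list of pathway genes (x axis), with a point per gene, the median as a line, and calls from limma in colour. The medians are 0.88 for the members, 1.11 for feedback inhibitors and targets and 0.14 for co-receptors and heparan sulphate genes.

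Of 13 further secreted ligands, 5 were in the table, and 2 of these were higher in GFP+ (Fgf1 and Fgf4) and none lower, beside 19.7% and 20% of all genes. In the averaged test their adjusted p was 0.000461 and 0.0378. Fgf1, a ligand for all FGF receptors, had 270, 327 and 233 normalized reads in GFP+ and 19.1, 29.7 and 18.0 in Tomato+, with 19.98 in GFP- and 142 in Tomato-. Its log2 fold change was 3.598 (SE 0.32) with an adjusted p of 0.000149 (limma), above that of every member, and like Fgf10 it was lower in Tomato+ than in Tomato-. Fgf4, named here after its values were seen, had 54.1, 85.7 and 52.9 in GFP+ and 7.28, 0 and 7.91 in Tomato+, with an adjusted p of 0.0122 (limma). None of the 3 intracellular FGF homologous factors was called. Fgf11 averaged 68.1 ± 14.1 in GFP+ and 139 ± 61.6 in Tomato+, and Fgf13 averaged 247 ± 57.4 in GFP+ and 167 ± 57.6 in Tomato+ (SD, n = 3 each), with adjusted p-values of 0.120 and 0.176 (limma), and 0.544 and 0.360 in the averaged test. Without Tomato+ replicate 2 Fgf11 was called as lower in GFP+ (adjusted p = 0.00751).

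Of 22 co-receptor and heparan sulphate genes, 3 were higher and 4 lower, with a median of 0.14, and in the averaged test 1 was higher and none lower. These counts are no larger than the shares of all genes, 19.7% higher and 20% lower. Flrt3, a membrane protein that binds FGF receptors, averaged 4933 ± 284 in GFP+ and 1887 ± 202 in Tomato+ (SD, n = 3 each), with an adjusted p of 5.37e-05 (limma) and of 2.24e-05 in the averaged test. The syndecans Sdc4 (359 ± 103 in GFP+ and 139 ± 35.8 in Tomato+) and Sdc1 (928 ± 133 in GFP+ and 618 ± 21.2 in Tomato+) had adjusted p-values of 0.00807 and 0.0119 (limma), and 0.0804 and 0.169 in the averaged test. Sdc1 also lost its call without GFP+ replicate 1 (adjusted p = 0.0578) or GFP+ replicate 3 (0.0613). Those that were lower were Sdc3, Gpc4, Hspg2 and Sulf2, named after their values were seen. Of the 24 genes of signal transduction, 12 were higher and 3 were lower (median 0.33), against 7 and 1 in the averaged test, beside 19.7% and 20% of all genes, and 8.9% and 9.24% in the averaged test. The kinase genes Map2k1 (1364 ± 73.9 in GFP+ and 688 ± 55.4 in Tomato+) and Mapk3 (955 ± 310.4 in GFP+ and 451 ± 38.7 in Tomato+) had log2 fold changes of 0.99 and 1.02. The RAS gene Hras averaged 381 ± 41.3 in GFP+ and 198 ± 48.7 in Tomato+, a log2 fold change of 0.97. The adjusted p-values (limma) were 0.0004, 0.0139 and 0.0119 for Map2k1, Mapk3 and Hras, and 0.00373, 0.0653 and 0.0734 in the averaged test. Mapk3 lost its call without GFP+ replicate 1 (adjusted p = 0.0519) or GFP+ replicate 3 (0.0515), and Hras without GFP+ replicate 3 (0.0543).

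Of 6 genes known to act upstream of Fgf8 and Fgf10 in mouse pharyngeal mesoderm, 3 were higher in GFP+ and none lower (median 0.69), against 2 and none in the averaged test, beside 19.7% and 20% of all genes. Eya1, a transcriptional coactivator, averaged 3385 ± 221 in GFP+ and 1893 ± 287 in Tomato+, and Isl1, a homeodomain factor that marks the SHF, averaged 1465 ± 164 in GFP+ and 847 ± 35.1 in Tomato+ (SD, n = 3 each). Tbx1, a T-box factor of pharyngeal tissues that the study also lists as an anterior SHF marker, averaged 242 ± 62.7 in GFP+ and 122 ± 19.8 in Tomato+. The adjusted p-values (limma) were 0.00123, 0.00142 and 0.0253 for Eya1, Isl1 and Tbx1, and 0.00534, 0.0306 and 0.264 in the averaged test. Tbx1 is the gene not called there, and its call was also lost without any 1 of GFP+ replicate 1, GFP+ replicate 3, Tomato+ replicate 1 and Tomato+ replicate 3 (adjusted p 0.0603 to 0.108).

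Genes with profiles most like those of the members were found over all 8 libraries, as the smallest root mean square difference of centred log2 values among 10480 candidate genes. Nearest to Fgf9 were Osr1 (0.212), Hoxb1 (0.251) and Kcnh7 (0.291), against a median of 1.37 over all candidates. Nearest to Fgf10 were Hs3st3a1 (0.234), Spred3 (0.276) and Etv1 (0.352), with a median of 0.90, and nearest to Fgfr2 were Spred2 (0.105), Obsl1 (0.135) and Galc (0.136), with a median of 0.65. Spred2, Spred3 and Etv1 are genes of the feedback and target list. The nearest profiles were those of Elk1, Flna and Satb1 for Fgfr1 (0.054 to 0.063), Dolpp1, Tor3a and Fars2 for Fgfr3 (0.139 to 0.167) and Rel, Srf and Setd7 for Fgfrl1 (0.106 to 0.123). The mean of Fgf15 was under the minimum of 100 normalized reads for this search. The 8 libraries share their dissection and include near copies, so these distances are a description.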

How the data were processed

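Cells sorted from SHF regions gave 8 libraries, in 4 groups as labelled. Amplified cDNA was made from 2 ng of RNA by isothermal amplification, without strand information, and sequenced from both ends, per the labels. The submitters' processing notes name bcl2fastq 2.17.1.14, STAR 2.5.2, genome build mm10, HTSeq, R 3.3.4 and DESeq2. A paragraph of the study's methods instead names single-end reads and RSEM, so the annotation behind the counts is uncertain. The deposited table holds, per gene and library, a signal, which the authors obtained as reads over a size factor. Its other columns hold the authors' mean, log2 fold change, Wald score, p-value and adjusted p-value of GFP+ against Tomato+, and were not used. Reads were recovered as whole numbers, within 0.01, for 100% of the values.

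GFP+ and Tomato+ were compared with limma 3.58.1 (R 4.3.3, trend, log2(normalized reads + 1), no covariate) over 16153 genes with a mean of at least 10, with Benjamini-Hochberg adjustment over all of them, and folds are on that log scale. On the recovered reads, edgeR 4.0.16 (quasi-likelihood test, TMM) called 3091 genes higher and 3170 lower, and DESeq2 1.42.0 called 3525 and 3642. Further alternatives were other pseudocounts, filters and scalings, replicates 1 and 3 averaged or summed, a replicate block and each library left out. The scripts were tested on simulated data with independent libraries, which does not cover the near copies among the real replicates. Lengths are the union of exons in GENCODE M21.

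All members in the table were named. For pathway lists the rule took at most 3 called genes, by largest fold, provided the higher group averaged 100 or more and the groups did not overlap, or, where none met this, the 2 with the highest mean. The 3 genes with the most similar profile (mean of at least 100 over 8 libraries) were named per member, beside Hoxb1 and Mef2c. The members and lists were chosen with earlier results of these data known.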

Additional observations from a re-analysis of the deposited data

Results flagged for a closer look

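Fgf10 lay on opposite sides of the unlabelled cells in the GFP and Tomato lines. The GFP+ mean was 4.55 times the GFP- level, with all 3 GFP+ libraries above it, and the Tomato+ mean was 0.399 times the Tomato- level, with all 3 Tomato+ libraries below it. Fgfrl1 showed the same arrangement at a smaller size, with ratios of 1.84 for GFP+ over GFP- and 0.739 for Tomato+ over Tomato-. The difference between the lines was not tested, since each unlabelled population is 1 library, and 24.7% of all genes showed such an arrangement in either direction.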

How the results depend on the processing

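Of 20 alternatives per gene, none turned the direction of the 5 members called, and none changed whether Fgf10, Fgf15, Fgfr1, Fgfr2 or Fgfr3 was called. The log2 fold changes of Fgf15 and Fgfr1, which were not called, lay around 0, from -0.17 to 0.17 and from -0.09 to 0.14. Fgf9 lost its call in 2 and Fgfrl1 in 4 of them. With replicates 1 and 3 averaged (limma) or summed (edgeR), 2 members were higher in either test, against 4 with all libraries, while 1437 and 1306 genes were higher in all, against 3186, and 1493 and 1438 were lower, against 3224. Leaving out each library in turn gave 2067 to 4025 genes higher and 2132 to 3876 lower, and 3 or 4 members higher. The share of calls that were higher was 37.3% with scaling to reads outside mitochondrial genes and 41.6% with upper quartile scaling (median of all genes -0.09), against 49.7%, and no member changed its call. The replicate block called 2982 genes higher and 3009 lower and ended the call of Tbx1 (adjusted p = 0.0569, limma) but of no member. Deviations of libraries with the same number had correlations of 0.040, 0.025 and 0.016 over 11762 genes, so the numbers were not taken as pairs, and GFP+ replicate 3 was nearer to Tomato+ replicate 1 than to its own number. With a limit of 1.5-fold in place of 2-fold, 1 member stood apart below GFP- and 1 above and 2 below Tomato-, and with 3-fold 0 stood apart below Tomato-. With the longest coding transcript as length, an alternative chosen after seeing the data, the Fgfr2 share of the 3 receptors was 73.4% in GFP+ and 51.1% in Tomato+. Depth limits Fgf15 and Fgf9 most, with as few as 44 and 15 reads in a library, and intervals cover these libraries only.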
